A study of Mus musculus with 12 samples.

Results

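The 32 proliferation genes described here were 10 genes of DNA synthesis, used in S phase, and 22 genes of mitosis. They were the rows of the count tables of sorted microglia and sorted astrocytes that carry the symbols of a list of cell cycle genes. All 32 were found among the 40853 symbols of each table. The libraries came from mice of 8 to 9 weeks, of which 3 were wild type (WT) and 3 carried a knockout (KO) of Kpna4, which encodes importin α4, an adaptor that carries proteins into the nucleus. All mice, WT and KO alike, were given lipopolysaccharide (LPS, the endotoxin of Gram-negative bacteria and an inflammatory stimulus) into the peritoneum at 1 mg/kg, 20 h before dissection. Untreated mice were not analysed here. Whole brains were digested and the glia sorted by fluorescence-activated cell sorting. The 4 groups, WT and KO microglia and WT and KO astrocytes, held 3 libraries each, and each of the 6 animals gave 1 microglia and 1 astrocyte library. Which part of Kpna4 was deleted, and whether in all cells, is not stated in the labels.

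Before a cell divides, origins of replication are licensed by loading of the MCM helicase, and at S phase entry the E2F transcription factors raise the genes of the helicase, of the clamp that holds the polymerases and of deoxyribonucleotide synthesis. Later, the B-MYB and FOXM1 factors, recruited through the MuvB core, raise the genes of chromosome condensation, the spindle, the checkpoint and cytokinesis. In resting cells the DREAM complex represses both classes. In the adult brain most glia do not divide, microglia renew by local division, and inflammatory stimuli can raise microglial proliferation. Messenger RNA of S-phase genes can also be present in cells that do not go on to mitosis.

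The 2 classes are often told apart by promoter elements. The sequences of 6 members are shown because they had the smallest p between the cell types in their class (Mcm2, Mcm3, Mcm5 and Mcm6, higher in microglia, and Kif11, lower) or hold the elements of a mitotic promoter (Cdc20). They were chosen after the values had been seen. Each is the 150 bases before the RefSeq start of the gene in GRCm38.p6, written 5′ to 3′ on the strand of the gene. Capitals mark a CCAAT box (CCAAT), a cell cycle homology region (CHR, searched as TTTGAA or TTCGAA) or an E2F element (searched as TTTCGCGC, TTTGGCGC, TTTCCCGC or TTTGCCGC), each on either strand. In Mcm6, 2 E2F matches overlap and form 1 run of capitals.
Mcm2, chr6:88898781-88898930, minus strand: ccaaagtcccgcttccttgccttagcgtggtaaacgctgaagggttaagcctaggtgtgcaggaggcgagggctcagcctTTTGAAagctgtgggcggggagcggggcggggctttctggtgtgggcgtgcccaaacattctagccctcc
Mcm3, chr1:20820313-20820462, minus strand: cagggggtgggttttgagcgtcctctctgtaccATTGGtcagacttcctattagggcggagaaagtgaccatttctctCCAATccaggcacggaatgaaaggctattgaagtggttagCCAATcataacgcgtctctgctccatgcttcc
Mcm5, chr8:75109359-75109508, plus strand: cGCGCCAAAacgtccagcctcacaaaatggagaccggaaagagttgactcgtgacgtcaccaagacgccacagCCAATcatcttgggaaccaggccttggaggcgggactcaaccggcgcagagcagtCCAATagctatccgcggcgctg
Mcm6, chr1:128359706-128359855, minus strand: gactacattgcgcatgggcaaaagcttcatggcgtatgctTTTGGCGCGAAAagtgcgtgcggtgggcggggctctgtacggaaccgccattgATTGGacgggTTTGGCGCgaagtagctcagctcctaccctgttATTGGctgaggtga
Kif11, chr19:37376232-37376381, plus strand: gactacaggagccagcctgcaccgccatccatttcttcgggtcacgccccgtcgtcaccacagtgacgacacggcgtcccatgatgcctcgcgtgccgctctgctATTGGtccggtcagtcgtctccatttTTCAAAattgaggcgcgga
Cdc20, chr4:118437344-118437493, minus strand: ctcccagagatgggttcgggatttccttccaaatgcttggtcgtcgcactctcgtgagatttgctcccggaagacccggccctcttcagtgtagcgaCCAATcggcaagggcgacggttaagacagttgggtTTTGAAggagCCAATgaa
In these stretches the CCAAT boxes stood in Mcm3, Mcm5, Mcm6, Kif11 and Cdc20, the E2F elements in Mcm5 and Mcm6, and the CHR in Mcm2, Kif11 and Cdc20. The CCAAT box of Mcm2 lay farther upstream than the bases printed. Over the 250 bases before the start, 27 of the 32 members were found in the RefSeq table, with 29 windows, and Ccna2, Aurkb, Kif20a, Tpx2 and Mcm4 were not matched. A CCAAT box was in 9 of 10 windows of S-phase members and 17 of 19 windows of mitotic members, beside 33.8% of all promoter windows and 34.6% of those of genes tested between the cell types. A CHR was in 9 of 19 mitotic windows and 2 of 10 S-phase windows, beside 17.1% of all windows and 13% of those of tested genes. An E2F element was in 3 of 10 S-phase windows (Mcm5, Mcm6 and 1 of 2 Mcm7 windows) and 1 of 19 mitotic windows (Cdk1), beside 1.86% of all windows and 2.92% of those of tested genes. Kif11 and Mcm2, which differed in opposite directions between the cell types, both held a CHR and a CCAAT box. A match is a description of the letters and not a measured site.

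The microglia libraries held 10.3 M to 14.5 M counts over 16827 to 20905 genes, and the astrocyte libraries 10.7 M to 15.6 M counts over 15791 to 19800 genes. In astrocytes 8 abundant non-coding RNAs took 26.2% to 39.5% of the counts, against 11.8% to 15.4% in microglia. The 10 microglia markers summed to 14014 to 18033 CPM (counts scaled to a common library total) in the microglia libraries and to 218 to 599.9 CPM in the astrocyte libraries. The 10 astrocyte markers summed to 16743 to 22181 CPM in astrocytes and to 340.0 to 758 CPM in microglia. Kpna4 itself was at 67.9 to 96.4 CPM in WT and 59.8 to 78.6 CPM in KO microglia, and at 40.1 to 57.6 CPM in WT and 43.8 to 80.2 CPM in KO astrocytes. The counts sum the whole gene, so this does not check the genotype labels.

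Across the cell types, most S-phase genes stood at higher levels in microglia, and few mitotic genes differed. Of the 10 S-phase members, 7 were higher in microglia and 0 were lower (edgeR's quasi-likelihood test over 12 libraries, adjusted p under 0.05, microglia over astrocytes), beside 28.2% of all 17294 genes tested called higher and 36.4% called lower. DESeq2 called 1 S-phase member lower, Rrm2. Of the 21 mitotic members tested, 1 was higher (Top2a) and 3 were lower (Kif11, Cenpf and Tpx2). Ccnb2 was too low for the test. The median log2 fold change was 1.19 over the S-phase members and 0.18 over the mitotic members tested, beside -0.19 over all genes tested. The CPM ranges of the 6 microglia and the 6 astrocyte libraries did not overlap for 7 S-phase members, all higher in microglia (24.9% of all genes tested), and for 1 mitotic member, Kif11, which was lower (21.7% of all genes). In bulk RNA, fewer cells that express a gene and less RNA per cell cannot be told apart.

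**Figure D1:**
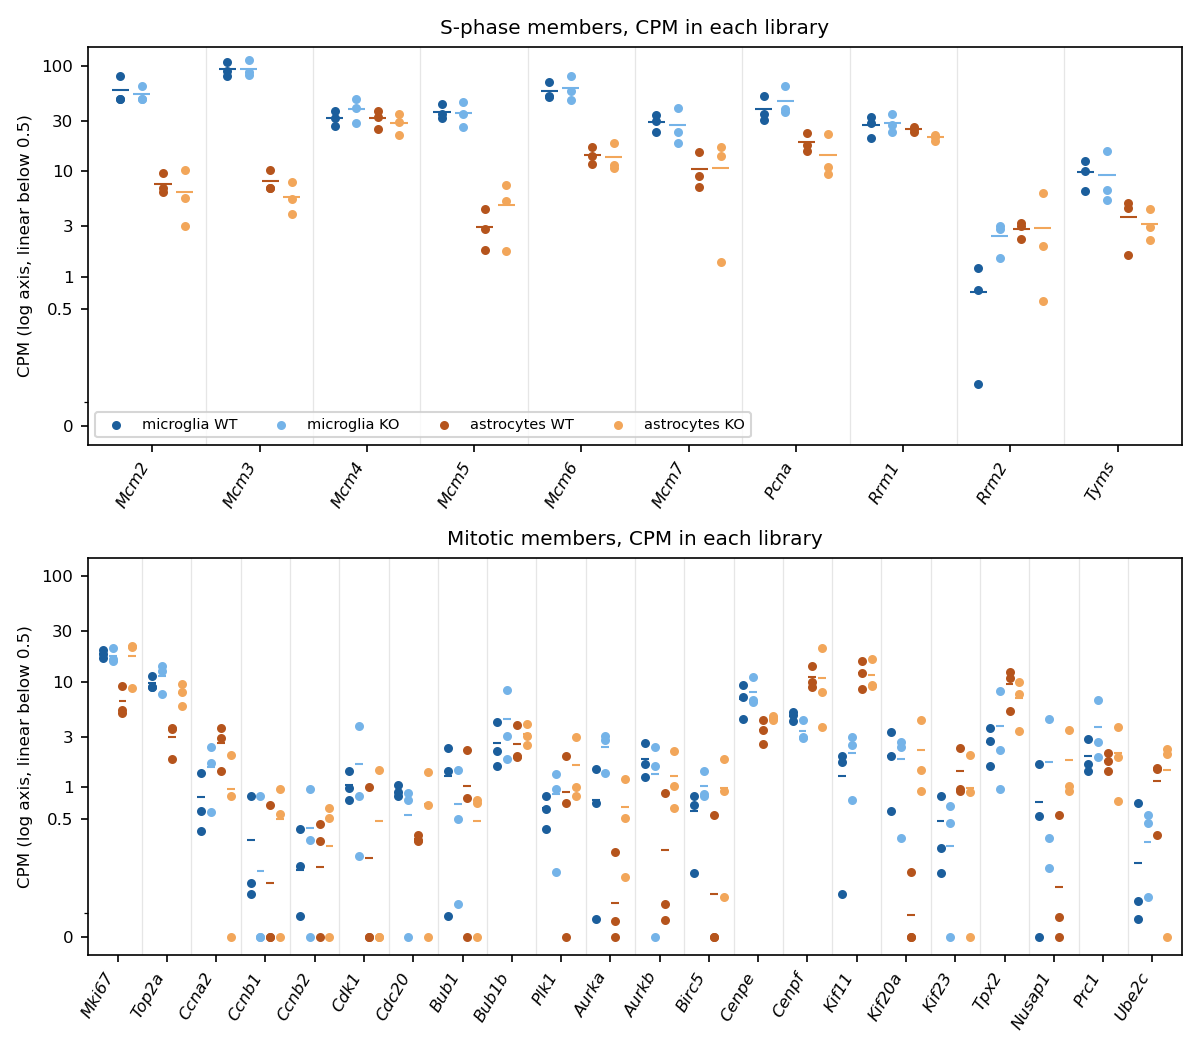
CPM of the 10 S-phase members (top) and the 22 mitotic members (bottom) in each of the 12 libraries, on a log axis that is linear below 0.5 CPM. Points are libraries, short lines are group means, and colours are the 4 groups. Mcm2, Mcm3 and Mcm5 separate the cell types without overlap, Mcm4 and Rrm1 do not, and many mitotic members lie near 1 CPM.

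The helicase genes encode the 6 subunits of 1 ring, which is loaded as a whole, yet their messages differed. Mcm3 was at 88.0, 80.6 and 108 CPM in WT and 86.0, 81.9 and 112 CPM in KO microglia, against 6.91, 10.3 and 6.90 CPM in WT and 7.82, 3.91 and 5.46 CPM in KO astrocytes. The lowest microglia library was far above the highest astrocyte library. The log2 fold change, microglia over astrocytes, was 3.50 (SE 0.21, edgeR adjusted p 2.35e-09), an 11.3-fold higher level and the largest difference among the members. Mcm5 was at 43.1, 35.0 and 31.7 CPM in WT and 26.4, 35.0 and 44.9 CPM in KO microglia, and at 2.81, 1.79 and 4.38 CPM in WT and 5.27, 1.77 and 7.45 CPM in KO astrocytes. Its groups were again apart (log2 fold change 3.0, SE 0.32, edgeR adjusted p 1.04e-06). Mcm2 was at 79.1, 48.4 and 48.5 CPM in WT and 48.4, 48.5 and 64.7 CPM in KO microglia, and at 6.33, 6.99 and 9.57 CPM in WT and 3.06, 10.3 and 5.52 CPM in KO astrocytes. All microglia libraries were above all astrocyte libraries, and the log2 fold change was 2.71 (SE 0.32, edgeR adjusted p 3.70e-06).

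Mcm6 differed less, at 70.4, 51.9 and 50.6 CPM in WT and 57.6, 46.9 and 79.2 CPM in KO microglia against 11.7, 13.9 and 17.1 CPM in WT and 11.4, 10.7 and 18.4 CPM in KO astrocytes. The groups did not overlap (log2 fold change 1.83, SE 0.21, edgeR adjusted p 2.85e-06). Mcm7 was at 29.9, 23.3 and 33.8 CPM in WT and 18.6, 23.7 and 39.3 CPM in KO microglia, and at 7.12, 9.03 and 15.2 CPM in WT and 16.9, 1.40 and 14.1 CPM in KO astrocytes. Its ranges nearly touched, and KO astrocyte library 2 stood below the rest. The log2 fold change of Mcm7 was 1.18 (SE 0.40, edgeR adjusted p 0.0189), and without WT animal 1 it was 1.04 with an adjusted p of 0.0811. Mcm4 stood apart from the other subunits, at 26.7, 32.1 and 37.1 CPM in WT and 28.8, 39.6 and 48.4 CPM in KO microglia and at 25.1, 37.2 and 32.7 CPM in WT and 21.8, 28.9 and 34.9 CPM in KO astrocytes. The ranges overlapped and no difference was detected (log2 fold change -0.064, SE 0.21, edgeR adjusted p 0.802), and the sign depended on the scaling: the value was 0.23 with library totals alone and 0.022 with the 8 abundant RNAs left out.

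Per kilobase of the longest annotated transcript, which allows levels of different genes to be compared, the helicase subunits of microglia ranged from 9.48 CPM per kilobase (Mcm7) over 9.88 (Mcm4), 10.7 (Mcm5), 13.6 (Mcm6) and 16.7 (Mcm2) to 30.6 (Mcm3). In astrocytes the order was another one, from 1.16 (Mcm5) over 2.07 (Mcm2), 2.27 (Mcm3), 3.18 (Mcm6) and 3.59 (Mcm7) to 8.39 CPM per kilobase (Mcm4). Mcm3 was thus the most and Mcm4 among the least abundant subunit messages in microglia, while in astrocytes Mcm4 was the most abundant. The SD over the 6 libraries was 4.51 for Mcm3 and 2.23 for Mcm4 in microglia and 0.717 and 1.64 in astrocytes, and in microglia Mcm5, Mcm4 and Mcm7 lay within their spread of each other. The mitotic members were lower per kilobase, with a median of 0.385 in microglia and 0.467 in astrocytes, against 10.3 and 2.73 for the S-phase members. Isoforms other than the longest one were not resolved.

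Pcna, the clamp that holds the polymerases on DNA during replication and repair, was at 34.8, 30.6 and 51.2 CPM in WT and 36.2, 38.8 and 63.4 CPM in KO microglia. In astrocytes it was at 15.7, 17.9 and 22.8 CPM in WT and 11, 9.40 and 22.3 CPM in KO. It was higher in all microglia libraries (log2 fold change 1.11, SE 0.25, edgeR adjusted p 0.00116). Tyms, the thymidylate synthase, was at 12.6, 10.1 and 6.47 CPM in WT and 15.7, 6.69 and 5.37 CPM in KO microglia and at 5.04, 1.63 and 4.44 CPM in WT and 2.21, 2.98 and 4.37 CPM in KO astrocytes. The lowest microglia and the highest astrocyte library of Tyms were close, and the log2 fold change was 1.19 (SE 0.44, edgeR adjusted p 0.0269). This call was lost without WT animal 1 (adjusted p 0.0682), without KO animal 1 (0.0914) and with the animal as a block (0.0762, all by edgeR).

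Ribonucleotide reductase, which makes the deoxyribonucleotides, showed no difference that edgeR called. Its large subunit Rrm1 was at 20.4, 32.7 and 28.5 CPM in WT and 27.1, 35.0 and 23.3 CPM in KO microglia and at 26.4, 25.0 and 23.3 CPM in WT and 22, 19.5 and 21.1 CPM in KO astrocytes. The log2 fold change was -0.0068 (SE 0.19, edgeR adjusted p 0.978), and it was 0.29 with library totals alone. The small subunit Rrm2, whose amount limits the enzyme in the cell cycle, was near the limit of detection, at 0.75, 0.18 and 1.22 CPM in WT and 3.0, 2.84 and 1.52 CPM in KO microglia. In astrocytes Rrm2 was at 3.02, 2.28 and 3.21 CPM in WT and 0.60, 1.95 and 6.16 CPM in KO. Its log2 fold change was -1.37 (SE 0.70, edgeR adjusted p 0.102), toward astrocytes and thus opposite to the helicase genes. DESeq2 called it, with a log2 fold change of -1.40 and an adjusted p of 0.0391.

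**Figure D2:**
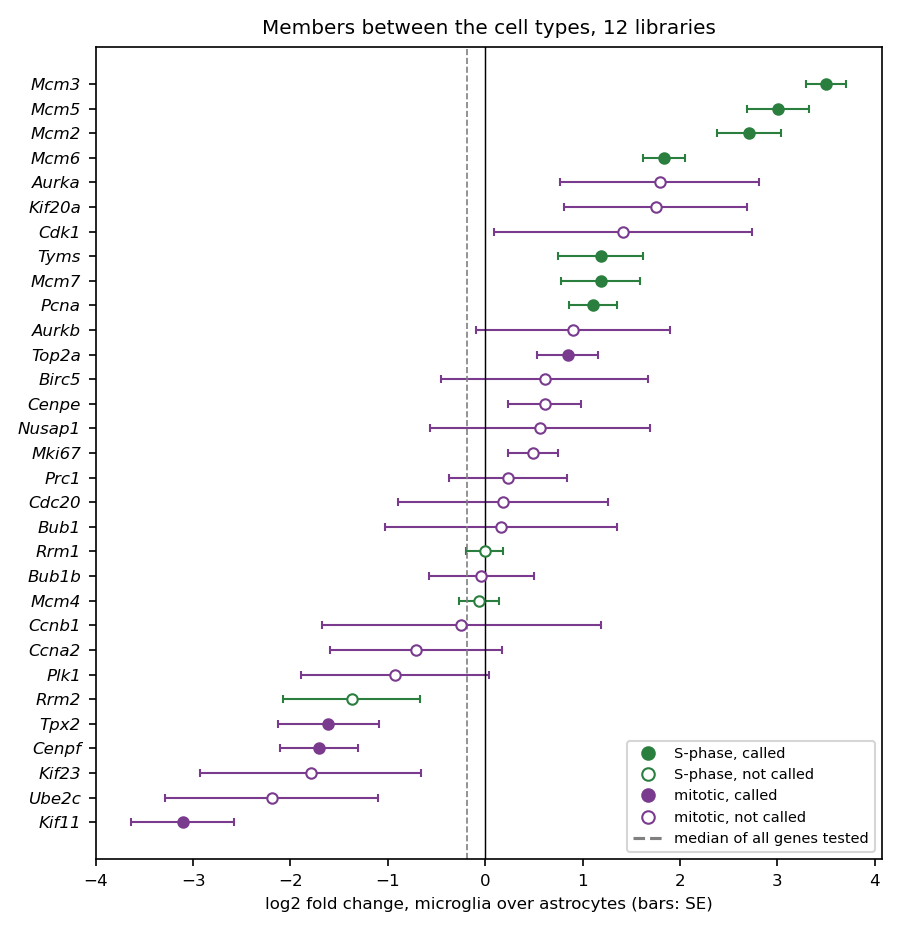
Log2 fold change, microglia over astrocytes, of the 31 members tested, with bars for the SE. Filled points passed an adjusted p of 0.05 and the dashed line is the median of all genes tested. The S-phase members Mcm3, Mcm5, Mcm2 and Mcm6 lie farthest to the right and the mitotic member Kif11 farthest to the left, at -3.11.

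The 3 mitotic members that were lower in microglia are genes of the spindle and the kinetochore. Kif11, the kinesin that pushes spindle poles apart, was at 1.73, 0.18 and 1.98 CPM in WT and 3.0, 0.75 and 2.55 CPM in KO microglia, and at 8.56, 15.7 and 12.2 CPM in WT and 9.18, 9.31 and 16.5 CPM in KO astrocytes. All astrocyte libraries were above all microglia libraries, and the log2 fold change was -3.11 (SE 0.53, edgeR adjusted p 0.00012). Cenpf, a large protein of the kinetochore, was at 5.13, 4.22 and 4.87 CPM in WT and 4.36, 2.93 and 3.03 CPM in KO microglia and at 9.93, 8.86 and 14.2 CPM in WT and 3.74, 8.00 and 21.0 CPM in KO astrocytes. It was lower in microglia (log2 fold change -1.71, SE 0.40, edgeR adjusted p 0.00187), although KO astrocyte library 1 lay within the microglial range. Without KO animal 3 the log2 fold change was -1.06 with an adjusted p of 0.0503. Tpx2, a spindle assembly factor that importin α binds, was at 1.58, 2.78 and 3.65 CPM in WT and 0.97, 2.26 and 8.20 CPM in KO microglia, against 5.25, 11 and 12.3 CPM in WT and 7.74, 3.44 and 10.02 CPM in KO astrocytes. The ranges overlapped through KO microglia library 3 and KO astrocyte library 2, the log2 fold change was -1.61 (SE 0.52, edgeR adjusted p 0.0137), and the call was lost without WT animal 2 (0.0746), WT animal 3 (0.0501) or KO animal 1 (0.066).

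The most used proliferation marker, Mki67, whose protein coats mitotic chromosomes, was at 18.2, 20.0 and 16.9 CPM in WT and 20.7, 16.5 and 15.6 CPM in KO microglia. In astrocytes it was at 9.21, 5.12 and 5.47 CPM in WT and 21.6, 8.75 and 21.9 CPM in KO. Microglia were thus above astrocytes in all WT libraries and overlapped with them in the KO libraries, and over both genotypes the log2 fold change was 0.49 (SE 0.26, edgeR adjusted p 0.112). It passed with library totals alone (0.74, adjusted p 0.0317) and without KO animal 3 (0.83, adjusted p 0.0378). Top2a, the topoisomerase that untangles sister chromatids, was at 8.97, 8.97 and 11.3 CPM in WT and 14.1, 12.6 and 7.64 CPM in KO microglia and at 3.67, 1.87 and 3.55 CPM in WT and 9.52, 5.96 and 7.96 CPM in KO astrocytes. It was higher in microglia in 5 of 6 animals (log2 fold change 0.85, SE 0.32, edgeR adjusted p 0.0295). That call was lost with the animal as a block (adjusted p 0.0679), without WT animal 1 (0.0502), without WT animal 3 (0.0545) and without the filter on low counts (0.123).

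None of the other mitotic members was called by edgeR. Low levels were seen for the kinase Cdk1 (0.34 to 3.78 CPM in microglia, 0 to 1.48 CPM in astrocytes) and its cyclins Ccna2 (0.45 to 2.43 and 0 to 3.62 CPM), Ccnb1 (0 to 0.84 and 0 to 0.96 CPM) and Ccnb2 (0 to 0.97 and 0 to 0.64 CPM). The mitotic kinases Plk1, Aurka and Aurkb and Birc5, the partner of Aurkb, had a log2 fold change between -0.93 (Plk1) and 1.79 (Aurka, SE 1.02). Of the checkpoint genes, Bub1b was at 1.58 to 8.45 CPM in microglia and 1.95 to 3.98 CPM in astrocytes (log2 fold change -0.041, SE 0.54), and Bub1 at 0.090 to 2.36 and 0 to 2.28 CPM. Cenpe, the kinetochore motor, was the best measured of this group, at 4.45 to 11.1 CPM in microglia and 2.60 to 4.75 CPM in astrocytes (log2 fold change 0.61, SE 0.37, edgeR adjusted p 0.164), and it was called with library totals alone. The genes of anaphase and cytokinesis, Cdc20, Ube2c, Prc1, Kif20a, Kif23 and Nusap1, were all at or under 6.69 CPM. Cdc20 is the activator and Ube2c the ubiquitin-conjugating enzyme of the anaphase-promoting complex. Ube2c was called lower in microglia by DESeq2 alone.

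The depth behind the classes differed. S-phase members had a median of 419 counts per library in microglia and 111 in astrocytes and no value at 0. Mitotic members had a median of 16.5 counts in microglia and 19.5 in astrocytes, 7 and 22 of 132 values at 0, and 34.8% and 34.1% of values under 10 counts. A count of 0 allows up to 3 counts, or 0.193 to 0.291 CPM in these libraries, for counting error only. Only 7 of the 22 mitotic members reached 10 counts in all libraries of a cell type. The SE of the log2 fold change between cell types was above 0.5 for 17 of the 21 mitotic members tested and for 1 of the 10 S-phase members. Smaller differences of most mitotic genes could thus not be told from 0. The parts of depth and of spread between libraries in these SEs were not tested.

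Summed over the class, the S-phase members gave 406, 345 and 397 CPM in WT and 348, 359 and 482 CPM in KO microglia, and 110, 126 and 140 CPM in WT and 102, 90.8 and 140 CPM in KO astrocytes. The means were 382 ± 32.9 (SD, n = 3), 396 ± 74.5, 125 ± 14.8 and 111 ± 25.6 CPM. Within each of the 6 animals the microglia library was the higher. Mcm3 made up 23.8% of the microglial sum and Mcm4 25.5% of the astrocyte sum. The mitotic members summed to 55.7, 62.7 and 63.2 CPM in WT and 74.7, 72.2 and 63.0 CPM in KO microglia, and to 51.7, 59.8 and 67.4 CPM in WT and 74.2, 56.9 and 107 CPM in KO astrocytes. The cell types overlapped, and KO astrocyte library 3 stood above all others and was the highest astrocyte library for 11 of the 22 mitotic members. The same share over all genes is not given here, so this count is not shown to be particular to the members. That library also held the most counts of the astrocyte libraries, at 15.6 M.

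The S-phase sum divided by the mitotic sum needs no scaling between libraries. It was 7.28, 5.50 and 6.28 in WT and 4.65, 4.97 and 7.65 in KO microglia. In astrocytes it was 2.13, 2.11 and 2.07 in WT and 1.38, 1.60 and 1.31 in KO. The ratio was higher in every microglia library than in any astrocyte library, and the 3 KO astrocyte libraries lay below the 3 WT ones. No test was made of sums over chosen members.

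**Figure D3:**
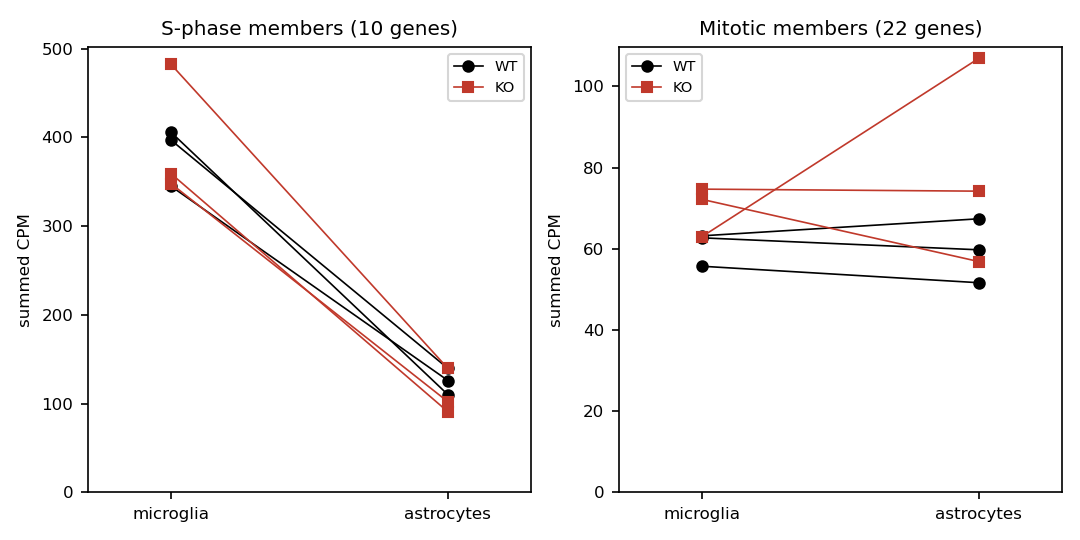
Summed CPM of the 10 S-phase members (left) and the 22 mitotic members (right), both axes starting at 0. Each line joins the microglia and the astrocyte library of 1 animal, WT in black and KO in red. All 6 lines fall on the left, from 345 to 482 CPM down to 90.8 to 140 CPM, and the lines on the right show no common direction.

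Markers of other cell types were present at different levels in the 2 sorts. The 8 oligodendrocyte markers summed to 825 to 3993 CPM in astrocytes and to 267 to 1724 CPM in microglia. The 8 choroid and ependymal markers summed to 823 to 1379 CPM in astrocytes, to 886 to 2212 CPM in WT and to 358 to 899 CPM in KO microglia. The 8 markers of pericytes and fibroblasts summed to 352 to 486 CPM in astrocytes and to 6.61 to 32.6 CPM in microglia. In microglia all 10 astrocyte, 8 endothelial and 5 tested pericyte and fibroblast markers had a log2 fold change, KO over WT, below 0. Of 6 choroid and ependymal markers tested 5 were below 0. The microglia markers (5 above, 5 below) and oligodendrocyte markers (4 above, 4 below) were divided. None of these was called. The 8 markers of oligodendrocyte precursors, a dividing cell of the adult brain, summed to 782 to 1016 CPM in WT and 653 to 888 CPM in KO astrocytes and to 16.4 to 40.3 CPM in microglia. Most of the astrocyte sum was Bcan, at 555 to 839 CPM, and the defining gene Pdgfra was at 6.79 to 18.8 CPM, highest in KO library 3. The precursor marker Cspg4 was at 18.3, 22.5 and 20.4 CPM in WT and 12.7, 6.14 and 13.7 CPM in KO astrocytes (log2 fold change -0.84, SE 0.35, unadjusted p 0.0328, edgeR adjusted p 0.999). Vcan was at 28.2, 31.2 and 28.8 CPM in WT and 17.1, 9.77 and 24.3 CPM in KO astrocytes (log2 fold change -0.71, SE 0.31, unadjusted p 0.0436, edgeR adjusted p 0.999). Both were lower in every KO than in every WT astrocyte library, KO library 3 included, and neither was called. Of all genes tested in astrocytes, 5.74% were lower in KO without overlap. The 8 precursor markers were divided, 4 with a log2 fold change, KO over WT, above 0 and 4 below, with a median of 0.0046. Above 0 were Pdgfra (0.44, SE 0.44), Cacng4 (0.078, SE 0.24), Neu4 (1.06, SE 1.82) and Lhfpl3 (0.81, SE 0.69). Tnr (-0.34, SE 0.28) and Bcan (-0.069, SE 0.18) were also below 0. The 11 markers of neural progenitors and neuroblasts summed to 202 to 389 CPM in astrocytes and to 9.79 to 16.8 CPM in microglia, with Sox11 highest in KO astrocyte library 3 at 35.6 CPM and Dcx at 0.081 to 5.88 CPM. Most of the astrocyte sum was Egfr, at 973 to 2058 counts, and Cd24a, at 828 to 3204 counts. Dlx2, at 1 to 46 counts, Eomes, at 0 to 49, and Neurog2, at 0 to 13, were low in astrocytes. The 8 markers of monocytes and border macrophages summed to 164 to 359 CPM in microglia and to 12.3 to 27.1 CPM in astrocytes, and Ccr2 was at 0.84 to 3.12 CPM in microglia. The 8 markers of neutrophils and their precursors summed to 2.33 to 25.2 CPM in microglia and to 3.66 to 13.9 CPM in astrocytes. S100a9, at 1.97 to 15.5 CPM, was counted in every library, and Ngp was at 0 to 4.96 CPM, while Elane was at 0 in all libraries and Mpo at 0 in all astrocyte libraries. The part of these cells in the levels of the members was not tested.

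Between the genotypes, no member passed the test in microglia, where 0 of 14191 genes (0%) were called. None of the 27 members tested had an unadjusted p under 0.05, beside 7.42% of all genes, and DESeq2 called none. The S-phase members lay close to 0, with a median log2 fold change, KO over WT, of 0.023, and the 17 mitotic members tested had a median of 0.40, beside -0.0013 over all genes tested. Rrm2 was the only member whose groups did not overlap, at 10, 2 and 16 counts in WT and 31, 34 and 22 counts in KO, beside 6.53% of all genes not overlapping with KO higher. Its log2 fold change was 1.74 (SE 1.00, edgeR adjusted p 0.741). Rrm2 would not have passed the filter on low counts by its WT libraries alone, so the filter favoured this direction. For the 6 Mcm genes the SE was between 0.20 and 0.29, with log2 fold changes from -0.16 (Mcm2) to 0.26 (Mcm4, edgeR adjusted p 0.845). Pcna was at 0.23 (SE 0.27, edgeR adjusted p 0.881). Differences near the size of these SEs could not be told from 0. The sign of the Pcna value rested on KO library 3, without which it was -0.047.

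The mitotic members with the smallest p in microglia were Aurka, Prc1 and Bub1b. Aurka, the kinase of the spindle poles, was at 1.51, 0.72 and 0.076 CPM in WT and 2.81, 3.09 and 1.38 CPM in KO (log2 fold change 1.60, SE 1.07, edgeR adjusted p 0.778). Like Rrm2, it would not have passed the filter by its WT libraries alone. Prc1, which bundles the microtubules of the central spindle, was at 1.66, 2.87 and 1.45 CPM in WT and 1.94, 6.69 and 2.69 CPM in KO (0.90, SE 0.76, edgeR adjusted p 0.839). Bub1b, a kinase-like protein of the spindle checkpoint, was at 1.58, 4.13 and 2.21 CPM in WT and 3.10, 8.45 and 1.86 CPM in KO (0.74, SE 0.73, edgeR adjusted p 0.856). The groups overlapped for all 3 genes, and the values of Prc1 and Bub1b were highest in KO library 2. Without that library the Bub1b log2 fold change was -0.11.

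In astrocytes, too, no member passed the test, and 0 of 15755 genes (0%) were called. Of the 16 mitotic members tested, 3 had an unadjusted p under 0.05, all with KO higher, beside 1.13% of all genes in that direction. They were Mki67, Top2a and Kif20a. Kif20a passed the filter on low counts only through its KO libraries, so the filter favoured that direction for it. Ccnb1, Ccnb2, Cdk1, Cdc20, Aurka and Birc5 were too low for the test. None of the 10 S-phase members did, and DESeq2 called 0 of the 26 members tested. The median log2 fold change, KO over WT, was 0.45 over the mitotic and -0.043 over the S-phase members, beside -0.0068 over all genes tested. The CPM ranges did not overlap for Top2a, Kif20a and Nusap1, higher in KO (2.39% of all genes), and for Rrm1, lower in KO (5.74% of all genes). Nusap1, like Kif20a, passed the filter only through its KO libraries. For these genes the lack of overlap follows from the filter and is no support for a difference.

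Mki67 had 128, 63 and 80 counts in WT and 254, 94 and 341 counts in KO astrocytes, which is 9.21, 5.12 and 5.47 against 21.6, 8.75 and 21.9 CPM. KO libraries 1 and 3 were above all WT libraries and KO library 2 was below WT library 1. KO library 2 was also the one with the fewest genes detected and the largest share of abundant RNAs, whose part in the value was not tested. The log2 fold change was 1.46 (SE 0.43, unadjusted p 0.00536, edgeR adjusted p 0.999), and it was 1.3 to 1.79 with any 1 library left out. Top2a was at 3.67, 1.87 and 3.55 CPM in WT and 9.52, 5.96 and 7.96 CPM in KO astrocytes, without overlap (1.47, SE 0.57, unadjusted p 0.0249, edgeR adjusted p 0.999). With any 1 library left out it was 1.25 to 1.65. Kif20a, a kinesin of cytokinesis, had 0, 0 and 4 counts in WT and 51, 10 and 23 counts in KO astrocytes. Its fitted log2 fold change of 4.55 (SE 1.72, unadjusted p 0.022, edgeR adjusted p 0.999) rests on few reads and was 3.78 to 7.83 with any 1 library left out. Nusap1, which binds spindle microtubules, was at 0, 0.081 and 0.55 CPM in WT and 0.94, 3.54 and 1.03 CPM in KO astrocytes (3.34, SE 1.65, edgeR adjusted p 0.999) and was singled out after its values were seen.

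The S-phase members with the smallest p in astrocytes were Mcm5 at a log2 fold change of 0.77 (SE 0.75), Pcna at -0.30 (SE 0.37) and Mcm3 at -0.41 (SE 0.50), all with an edgeR adjusted p of 0.999. Their libraries overlapped, and the values in each library are those given above. Among the other mitotic members, Kif11 was at 0.044 (SE 0.41), Cenpf at 0.11 (SE 0.55), Tpx2 at -0.35 (SE 0.51) and Ccna2 at -1.45 (SE 1.36). The SE was above 0.5 for 14 of the 16 mitotic and 6 of the 10 S-phase members tested in astrocytes.

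**Figure D4:**
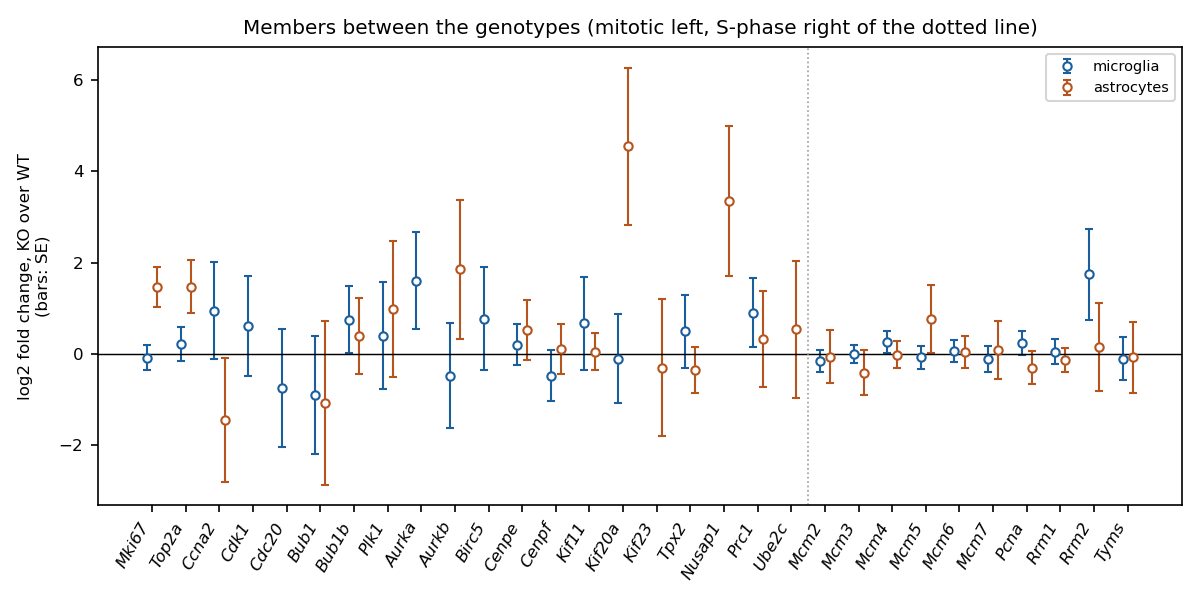
Log2 fold change, KO over WT, of the members tested in microglia (blue) and astrocytes (orange), with bars for the SE. Mitotic members are left and S-phase members right of the dotted line, open points mark that none passed the test, and members too low for the test in a cell type have no point. Mki67 and Top2a lie at 1.46 and 1.47 in astrocytes and at -0.084 and 0.21 in microglia, and Mcm2 to Mcm7 lie between -0.16 (Mcm2) and 0.26 (Mcm4) in microglia and between -0.41 (Mcm3) and 0.77 (Mcm5) in astrocytes.

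The difference of the genotype effects, astrocytes minus microglia, was tested in 1 fit of all 12 libraries, in which 0 of 17294 genes (0%) were called and 6.37% had an unadjusted p under 0.05. Again Mki67, Kif20a and Top2a had the smallest p of the 31 members tested. The difference was 1.64 for Mki67 (SE 0.52, unadjusted p 0.00658, edgeR adjusted p 0.558), 4.71 for Kif20a (SE 1.93, unadjusted p 0.0278, edgeR adjusted p 0.709) and 1.37 for Top2a (SE 0.63, unadjusted p 0.0473, edgeR adjusted p 0.774). It shares the astrocyte libraries with the comparison above and is no separate evidence. None passed the test, and DESeq2 called 0 of the 31 members, so that the genotype effect was not shown to differ between the cell types.

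The other genes of cell division came from 8 further lists that hold no member. Of 40 genes of origin licensing and the replication fork, 21 were higher in microglia and 2 lower, and the median of their log2 fold changes was 1.07. Those with the smallest p were Dnmt1, the methyltransferase that copies methylation at the fork (114 CPM as the median in microglia and 35.9 CPM in astrocytes, log2 fold change 1.55), Timeless of the fork protection complex (2.46) and the licensing factor Cdt1 (3.97). Rpa1 (-0.77) and Orc6 (-0.93) were lower. Of 16 genes of nucleotide synthesis, 10 were higher, led by Mthfd2 (3.78) and Shmt2 (1.62), enzymes of mitochondrial folate metabolism, and Cad (1.44), which starts pyrimidine synthesis, and 2 were lower, Paics (-0.93) and Mthfd1 (-0.63). Of 61 further mitotic genes tested, 11 were higher and 7 lower, with a median of 0.46. Arhgap11a (3.82), Incenp (2.08) and Mad1l1 (1.70) were higher in microglia, and the microtubule and kinetochore genes Nuf2 (-4.69), Spag5 (-4.50) and Ckap5 (-1.89) were lower. These shares stand beside 28.2% called higher and 36.4% called lower among all genes.

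Of 11 cyclins, kinases and Myc genes of G1, 4 were higher in microglia and 2 lower, and the D cyclins and the Myc pair were divided. These were 36.4% of the list higher and 18.2% lower, beside 28.2% higher and 36.4% lower among all genes. Ccnd1 was at 107 to 160 CPM in microglia and 3.17 to 13 CPM in astrocytes (log2 fold change 3.74), and its partner Cdk6 was also higher (2.83). Ccnd2 was at 9.45 to 17.6 CPM in microglia and 34.9 to 78.1 CPM in astrocytes (-2.53). Myc was higher (3.90) and Mycn lower (-2.81) in microglia. Of 11 inhibitors of division tested, 3 were higher, the antiproliferative genes Btg1 (3.16) and Btg2 (4.07) and the pocket protein gene Rbl1 (1.82). The other 3 called were lower, the Cdk inhibitors Cdkn1b (-0.92) and Cdkn1c (-1.08) and the pocket protein gene Rbl2 (-1.05). Each direction held 27.3% of the inhibitors tested, beside 28.2% higher and 36.4% lower among all genes.

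Of 18 E2F, MYB, FOXM1 and DREAM genes, 5 were higher, led by E2f3 (1.84), E2f4 (1.12) and Lin54 (1.00), and 4 were lower, led by Tfdp2 (-2.08), Lin52 (-1.74) and E2f6 (-1.21). Of 14 p53 targets 5 were higher, led by Plk3 (4.35), Sesn2 (1.84) and Aen (0.72), and 5 were lower, led by Trp53inp1 (-2.95), Zmat3 (-1.48) and Ccng1 (-1.04). Of 16 subunits and regulators of the anaphase-promoting complex, Anapc15 was higher (1.12) and 4 were lower, led by Anapc16 (-1.09), Anapc11 (-1.45) and Cdc23 (-0.72). The shares called higher and lower were 27.8% and 22.2% for the E2F, MYB, FOXM1 and DREAM genes. They were 35.7% and 35.7% for the p53 targets and 6.25% and 25% for the complex, beside 28.2% and 36.4% of all genes. With 1 animal left out, some of these calls were lost, with the highest edgeR adjusted p at 0.209 for Orc6 (all animals but WT 1), 0.181 for Mycn (all but WT 3), 0.16 for Cdkn1c (all but KO 2), 0.121 for Cdc23 (WT 2 or KO 3), 0.0629 for Rpa1 (KO 2), 0.0571 for Mthfd1 (KO 1 or KO 2) and 0.0529 for Aen (WT 1). With the animal as a block Orc6 (0.0632) and Mycn (0.0598) were not called. Library totals alone left Orc6 (edgeR adjusted p 0.103), Cdkn1c (0.102), Cdc23 (0.0637) and Mycn (0.0501) uncalled. Without the filter on low counts Orc6 was also not called (0.0867). Between the genotypes, 0 of 172 genes of these lists tested in microglia and 0 of 161 in astrocytes were called by edgeR or DESeq2, with 5 and 3 (2.91% and 1.86%) at an unadjusted p under 0.05, beside 7.42% and 2.37% of all genes tested. The smallest p in microglia was that of Timeless (log2 fold change -1.07, SE 0.32, edgeR adjusted p 0.542), which was called without the filter on low counts (adjusted p 0.0141). In astrocytes it was that of Orc6, at 1.15 (SE 0.41, edgeR adjusted p 0.999).

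**Figure D5:**
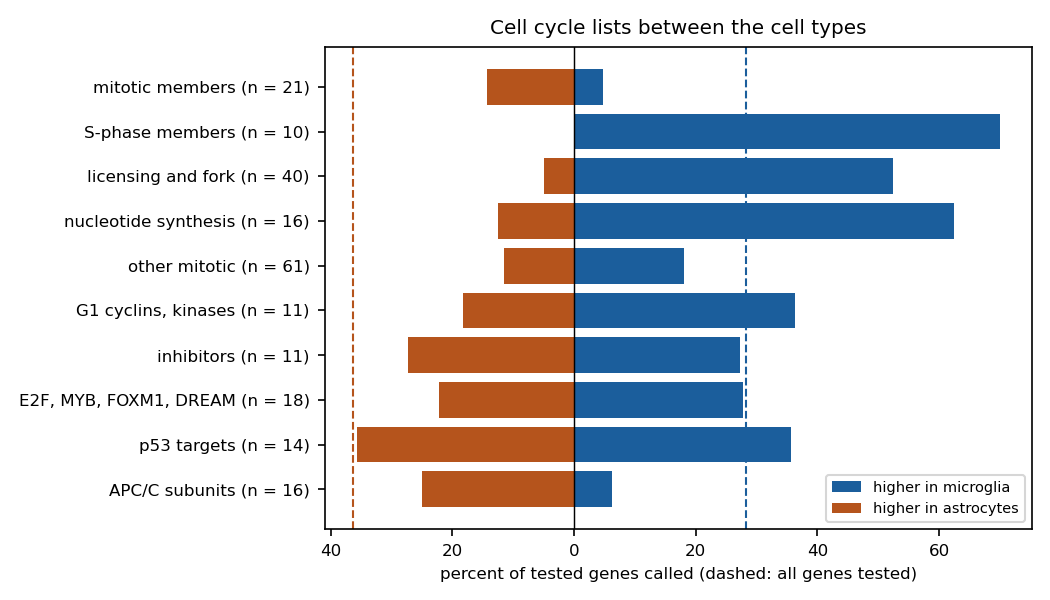
Percent of the tested genes of each list called higher in microglia (blue, to the right) or higher in astrocytes (orange, to the left), with dashed lines for all genes tested, at 28.2% and 36.4%. The lists of S-phase members, licensing and fork genes and nucleotide synthesis reach 52.5% to 70.0% on the right, and both mitotic lists stay under the dashed lines on both sides.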

How the data were processed

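RNA of FACS-sorted microglia and astrocytes was sequenced from full-length SMART-Seq HT cDNA with Nextera libraries, per the labels' protocols, and no molecular identifiers mark amplified copies. For each cell type the authors deposited a table of estimated counts by gene symbol, without normalization. The submitters' processing notes name STAR 2.7.10b, RSEM 1.3.3, limma and the build GRCm39, without roles. Promoters are RefSeq GRCm38.p6, so no file coordinates are given.

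Estimated counts were rounded, and CPM used library totals. The main test was edgeR 4.0.16 (R 4.3.3): TMM, filterByExpr with a minimum count of 10, quasi-likelihood test, Benjamini-Hochberg adjustment over all genes tested, called under 0.05. Genotypes were fitted within a cell type (6 libraries), and cell types and the difference of genotype effects as contrasts of 4 group means (12 libraries). The SE is the log2 fold change divided by the root of F. The fits were tested on simulated data. The alternatives were DESeq2 1.42.0, other scaling, filters of 1 and 50 counts, the 8 abundant RNAs left out, a replicate block, all libraries in 1 fit and each replicate left out.

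Members and lists were chosen with earlier results of these data known. Values in every library are given for S-phase and called mitotic members, Mki67, Top2a and Pcna, and for the 3 members per class with the smallest p between genotypes. The 3 with the smallest p for the difference of effects are named, and per further list up to 3 called genes in each direction and, between genotypes, the gene with the smallest p over the lists. Same-numbered microglia and astrocyte libraries are from 1 animal; their deviations from the group means correlated at 0.0022 to 0.0929 across genes. The labels do not pair WT with KO animals. All columns of values were mapped. Library pairs within a group differed beyond sampling noise.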

Additional observations from a re-analysis of the deposited data

How the results depend on the processing

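Under every alternative, 0 members were called between the genotypes in either cell type and for the difference of effects. Counts of genes called between genotypes moved: in microglia 41 with DESeq2, 121 without the filter on low counts, 41 with all 12 libraries in 1 fit and 0 to 2 with 1 replicate left out; in astrocytes 6, 17 without the filter and 0 to 1 with 1 replicate left out; for the difference 73, 160 without the filter and 0 to 6 with 1 replicate left out. With the replicate number as a block, which the labels do not make a pairing, 30 genes were called in microglia and 0 in astrocytes. Deviations from the group means of WT and KO libraries with the same number correlated at 0.051 to 0.197 in microglia and -0.021 to 0.231 in astrocytes. For WT and KO libraries with other numbers they correlated at -0.161 to 0.0301 in microglia and -0.164 to 0.0947 in astrocytes. Whether the numbers mark a shared batch was not tested. With the animal as a block, 6 members were higher and 3 lower in microglia than in astrocytes, and no call of a member other than Top2a and Tyms changed. Members called higher ranged from 5 to 10 and lower from 2 to 3 with 1 animal left out, and 5 were lower with DESeq2. Log2 fold changes that turned sign were Bub1b -0.11 to 1.23 and Pcna -0.047 to 0.46 between the genotypes in microglia with 1 library left out; Mcm4 between cell types 0.23 with library totals, 0.022 without the 8 abundant RNAs and -0.099 to 0.21 with 1 animal left out; Rrm1 0.29, 0.00989 without the filter, 0.088 without the abundant RNAs and 0.037 to 0.27. Without the abundant RNAs in the total, the S-phase sums were 443 CPM in WT microglia and 176 and 163 CPM in WT and KO astrocytes, and the mitotic sums 70.3 and 81.4 CPM in WT and KO microglia and 83.7 and 116 CPM in astrocytes. Without the largest member, the S-phase sums were 290.4 and 303 CPM and the mitotic sums 42.2 and 52.4 CPM in WT and KO microglia, and with TMM sizes the mitotic sum was 61.3 CPM in KO microglia. Of the values of mitotic members, 34.8% in microglia and 34.1% in astrocytes were under 10 counts. The cause of these shifts was not tested.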
